A study of Homo sapiens with 6 samples.

Results

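NEAT1 is a long noncoding RNA, and the USP39 binding sites that lie on it are described here. Its members are the plus-strand sites of the deposited merged list whose central base falls in the 22.7 kb span of NEAT1 on chromosome 11 (GRCh38). They number 243 of the 34781 sites in the list, or 0.699%, and each is 5 nt wide. NEAT1 was chosen by its number of sites in this same list, so that number and the density are descriptions with no test.

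USP39 belongs to the tri-snRNP, the U4/U6.U5 particle of the spliceosome. It was immunoprecipitated with an anti-USP39 antibody from wild-type HEK293T cells, a human line of embryonic kidney origin, after crosslinking with 254 nm UV light. The method was iCLIP2, which places sites where protein had been joined to RNA. Membrane pieces labelled low and high gave 2 groups of 3 libraries each, and all 6 libraries share the cell line, genotype, antibody and UV treatment. Only 1 merged site list was analysed, which libraries went into it is not given in the sources used here, and the control without UV light named in the design was not analysed here. The score of every site is 0, so the list gives positions and strands without heights, its read depth is unknown, and no value has a replicate error.

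NEAT1 is the RNA scaffold of paraspeckles, nuclear bodies that hold DBHS proteins such as NONO and SFPQ. Its gene makes a short isoform that ends at an early polyadenylation signal and a long isoform that starts at the same place and runs through to the end of the gene. Both are largely unspliced. The long isoform builds the paraspeckle, with its ends at the surface and its middle part in the core, and its 3' end is formed by RNase P cleavage rather than by polyadenylation. The 5' part of the RNA is therefore present in both isoforms and the rest only in the long one. Their separate amounts in these cells were not measured.

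The sites filled NEAT1 from end to end and stopped at its borders. The first site lay at 65422922 to 65422926, its centre at nt 127 counted from the start of the gene, and the last at 65445452 to 65445456, centred 86 nt before its end. All sites within the span were on the plus strand, with 0 on the minus strand. No site of either strand lay in the 25 kb before the gene or in the 25 kb after it. The nearest site on the 5' side was 69.9 kb away and belonged to DPF2. On the 3' side the nearest was 53.5 kb away, in MALAT1, a gene of another nuclear lncRNA.

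The density in the short-isoform part was close to that in the long-only part, and somewhat lower. The boundary was set at 3.7 kb from the start of the gene, the approximate length of the short isoform, because the gene table used gives no transcript ends. The first 3.7 kb held 32 sites, or 8.65 per kb. The remaining 19.0 kb held 211 sites, or 11.1 per kb. The ratio of short over long-only density was 0.781, with an exact binomial 95% interval of 0.521 to 1.14 that covers counting error only and treats sites as independent. That interval includes equal density. The short-isoform part makes up 16.3% of the length and held 13.2% of the sites (exact interval 9.18% to 18.1%).

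Moving the boundary left the short part below the rest. With the boundary at 3.0 kb the densities were 8.67 and 11.0 sites per kb, and at 4.5 kb they were 9.33 and 11.0. No step was seen at 3.7 kb itself, but the numbers there are small. The last 1 kb before the boundary held 10 sites (exact interval 4.84 to 18.1 per kb). The first 1 kb after it held 11 (5.54 to 19.3 per kb). Within 0.5 kb the numbers were 6 before and 5 after. With intervals this wide, the presence of a step cannot be decided.

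Stretches of the long-only part that are as long as the short part all held more sites than it did. From 5' to 3', the 5 consecutive stretches of 3.7 kb after the boundary held 36, 50, 37, 43 and 40 sites. They ranged over 14 sites among themselves, and the short part, with 32, lay 4 below the lowest of them. The exact 95% interval of the short part, 6.03 to 11.9 per kb, overlaps that of each of these stretches. For the stretch with 36 sites it is 6.96 to 13.1 per kb, and for that with 50 it is 10.3 to 17.2. The fullest stretch, from 7.4 to 11.1 kb, reached 13.5 sites per kb. The stretch just behind the boundary, with 36 sites or 9.73 per kb, was the nearest to the short part. When the whole gene was divided into 3 equal stretches of 7.58 kb, the 5' stretch held 70 sites, the middle stretch 90 and the 3' stretch 83. These are 9.23, 11.9 and 10.9 sites per kb, and the exact 95% intervals of all 3 overlap (7.44 to 11.2, 9.92 to 13.9 and 9.04 to 12.98).

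**Figure D1:**
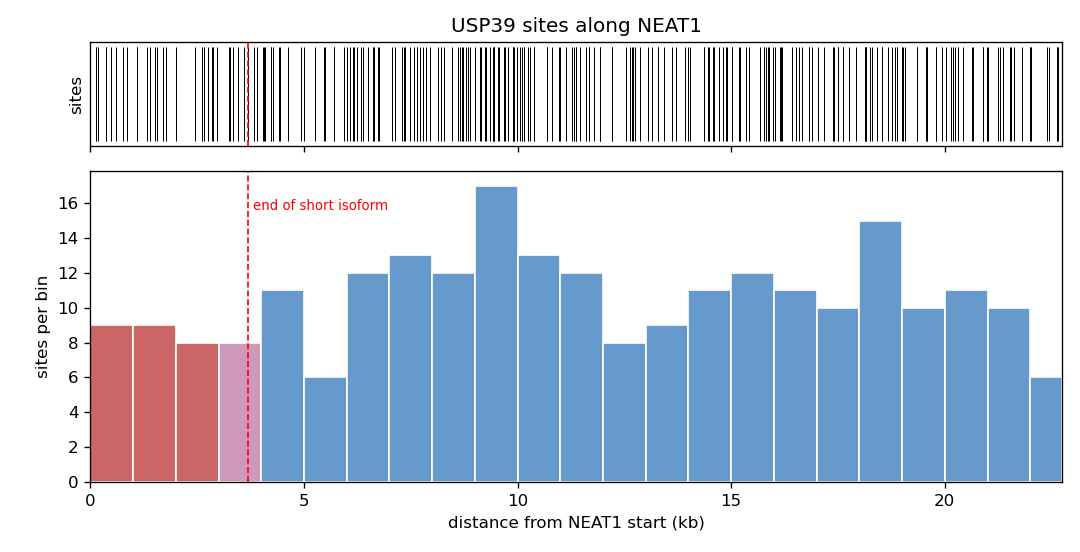
Sites along NEAT1: the upper strip marks the centre of each of the 243 sites and the lower plot counts them per 1 kb bin (the last bin is 743 nt long), both against distance from the start of the gene in kb. Red bins lie in the short-isoform part, blue bins in the long-only part, the mixed-colour bin spans the boundary, and the dashed line marks 3.7 kb; each bin holds between 6 and 17 sites and none is empty.

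At the scale of 1 kb, sites occurred in every bin. The 22 full bins held between 6 and 17 sites, with a median of 11 and a mean of 10.8 ± 2.49 (SD over bins, which are not replicates). The first 4 bins, which include the short-isoform part, held 9, 9, 8 and 8 sites. The fullest bin, from 9 to 10 kb, held 17 sites between 65431907 and 65432774. The next were the bin from 18 to 19 kb with 15 sites, between 65440926 and 65441792, and the bins from 7 to 8 kb and from 10 to 11 kb with 13 each. The lowest full bin, from 5 to 6 kb, held 6 sites between 65428049 and 65428735. Of the 22 full bins, 19 held from 8 to 13 sites. Bins of 500 nt were also all occupied, 46 of 46, with up to 9 sites. A window of 1000 nt set freely along the gene held at most 20 sites, from 65432222 to 65433192, about 9.4 to 10.4 kb from the start.

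Long stretches without a site were absent. The distance between the centres of neighbouring sites had a median of 76 nt, with quartiles of 31 and 128 nt. Of the 242 distances, 25 (10.3%) were over 200 nt, 5 were over 300 nt and 0 reached 500 nt. The longest, 449 nt, lay in the short-isoform part between the sites at 65424793 to 65424797 and 65425242 to 65425246. The next, 371 nt, lay close to the 3' end between 65444817 to 65444821 and 65445188 to 65445192. The next after that was 333 nt, between 65436823 to 65436827 and 65437156 to 65437160, about 14 kb from the start. The sites themselves cover 1215 nt, or 5.34% of the gene, while 93.0% of its length lay within 100 nt of a site centre and 99.8% within 200 nt.

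The gene of the microRNA miR-612, MIR612, is annotated within the 3' part of NEAT1 and is 100 nt long. It held 0 sites. The last site before it was centred 41 nt from its start and the next one 53 nt behind its end, so the sites on either side of it were 193 nt apart, more than the upper quartile of the distances in NEAT1 and less than its longest.

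Many sites came in close pairs and few in larger groups. The gene held on average a site per 93.6 nt, so density alone places some sites within 50 nt of another. How many it would place there was not tested. Sites whose centres lay within 50 nt of the next were chained, and chains of 3 or more are called clusters here. The 243 sites formed 155 chains, of which 87 were single sites, 52 were pairs and 16 were clusters. The clusters held 52 sites (21.4%, exact interval 16.4% to 27.1%). Of the 16 clusters, 12 had 3 sites and 4 had 4, and 0 had 5 or more. They were between 22 and 128 nt wide.

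The largest clusters lay at 4 separate places in the long-only part. The tightest of the clusters with 4 sites was at 65440926 to 65440953, 18.1 kb from the start, with its sites in 28 nt. Another, at 65432854 to 65432953, 10.1 kb from the start, lay within the densest 1000 nt of the gene and spread over 100 nt. The cluster at 65434062 to 65434167 spanned 106 nt at 11.3 kb, and that at 65438562 to 65438689 spanned 128 nt at 15.8 kb. The cluster next in order was the narrowest of all, with 3 sites in 22 nt at 65442357 to 65442378, 19.6 kb from the start. Both ends of the gene also carried a cluster of 3 sites: 65422922 to 65422976 holds the first sites of the RNA, and 65445419 to 65445456 its last.

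The short-isoform part had 1 cluster, the one at the 5' end, and the long-only part, which is longer, had 15. This is 2.703 and 7.88 clusters per 10 kb. The sites in clusters were 3 of 32 in the short part (9.38%, exact interval 1.98% to 25.02%) and 49 of 211 in the long-only part (23.2%, exact interval 17.7% to 29.5%). The share of sites with a neighbour within 50 nt was 46.9% in the short part (exact interval 29.1% to 65.3%) and 66.8% in the long-only part (exact interval 60.0% to 73.1%). Both pairs of intervals overlap, and they cover counting error only. The median distance was 104 nt in the short part and 72.5 nt in the long-only part. With each chain counted once, the densities were 6.49 per kb in the short part and 6.88 per kb in the long-only part, a ratio of 0.943.

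Short distances of 5 to 15 nt were more frequent, per nt of distance, than those just above them. NEAT1 had 41 distances from 5 to 15 nt, which is 3.73 for each nt of that range, against 1.27 per nt from 16 to 30 nt, 1.40 from 31 to 50 nt and 1.24 from 51 to 100 nt. The most frequent of the short distances was 5 nt, with 9 cases, which means that the sites abut; 7 cases followed at 6 nt and 5 at 7 nt. Of the 9 abutting pairs, 1 lay in the short-isoform part, at 65422922 to 65422931, and 5 lay between 17.5 and 19.3 kb from the start, from 65440295 to 65442142. No sites on NEAT1 are closer than 5 nt, their own width. The share of distances from 5 to 15 nt was 16.9% in NEAT1 (exact interval 12.4% to 22.3%), 13.2% in XIST, 13.97% in IRS4 and 24.4% in MALAT1 (15.997% to 34.6%), the genes nearest to it in density among those with at least 50 counted sites. Whether abutting sites are separate contacts or pieces of a wider one cannot be read from a list without heights.

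**Figure D2:**
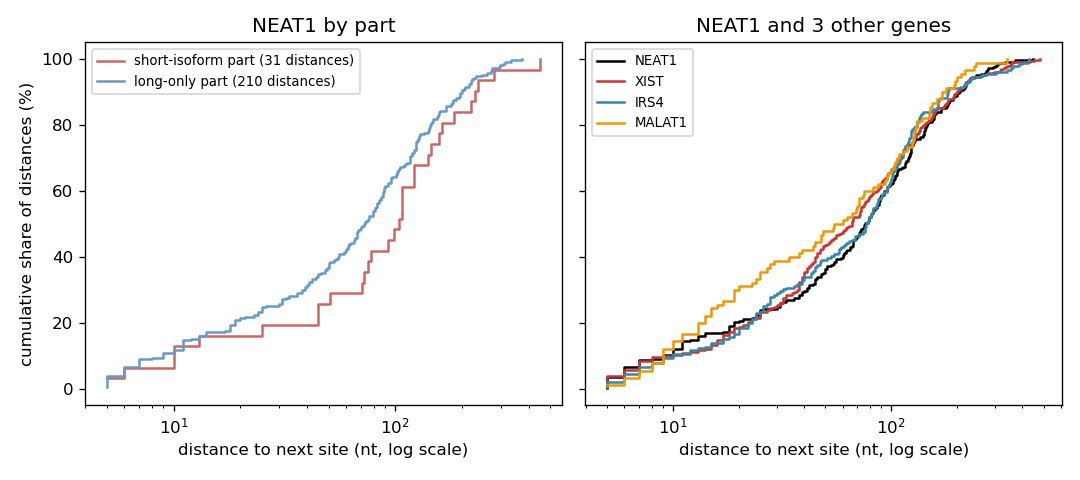
Cumulative share (%) of distances between the centres of neighbouring sites (nt, log scale), for the 2 parts of NEAT1 on the left and for NEAT1, XIST, IRS4 and MALAT1 on the right. The curve of the short-isoform part (31 distances, median 104 nt) runs mostly to the right of that of the long-only part (210 distances, median 72.5 nt). MALAT1, with a median of 57.5 nt, has a larger share of short distances than NEAT1, with 76 nt.

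Among genes with many sites, few were covered as densely. No gene of a small RNA had at least 50 sites counted for it, so these ranks leave such genes out, whatever their density. Expression was not measured. Among the 74 genes with at least 50 sites counted for them, NEAT1 ranked 2 in number of sites and 3 in sites per kb of gene span, with 10.7. XIST, the lncRNA of X chromosome inactivation, had 357 sites and 11.1 per kb. IRS4, a signalling adaptor gene, had 180 sites and 10.8 per kb. MALAT1 followed NEAT1 with 91 sites and 10.4 per kb, and EEF2, which encodes a translation elongation factor, came next with 73 sites and 7.76 per kb. In MALAT1 the first site centre lay at nt 1306 of the annotated span and the last 505 nt before its end. The density of MALAT1, and so its rank beside NEAT1, depends on that span. The first 4 of these densities lie close together, while the median of the other 73 genes was 2.30 sites per kb. Spans of spliced genes include introns, so densities are not per length of mature RNA. With sites within 50 nt joined, NEAT1 came first with 6.82 joined sites per kb, before IRS4 with 6.62 and XIST with 6.30. With genes of at least 20 sites admitted, the short gene RPS2 (33 sites, 11.9 per kb) stood above it as well, and NEAT1 ranked 4 of 403. With every site within a span counted, whatever gene it was given to, NEAT1 ranked 4 of 89 genes with at least 50 sites, and GAS5 came first with 11.3 per kb; this setting was chosen after seeing the data. NEAT1 held 18.0% of the 1348 sites counted for lncRNA genes, and XIST held more of them, 357.

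The sites of NEAT1 were spread evenly over its bins. The variance of the number of sites per 1 kb bin divided by its mean is low where bins are alike. It was 0.652 in NEAT1, the lowest of the 74 genes, against 0.906 in HNRNPU, 0.969 in IRS4, 2.12 in XIST and 2.58 in MALAT1. The median of the other 73 genes was 2.69. Of the 74 genes, 70 are protein coding, and bins over the spans of spliced genes include introns. NEAT1 is largely unspliced, and how much introns add to these ratios was not tested. Other bins were tried after seeing the data. In bins of 0.5 kb NEAT1 was again the lowest with 0.628, before IRS4 with 0.762. In bins of 2 kb it ranked 5 with 1.80, and ENO1 was lowest with 0.899. With the partial last bin of each gene left out, the value of NEAT1 was 0.574 and that of HNRNPU 0.591. In MALAT1 the first site centre lies at nt 1306 of the annotated span, so its first bin is empty and raises its value.

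**Figure D3:**
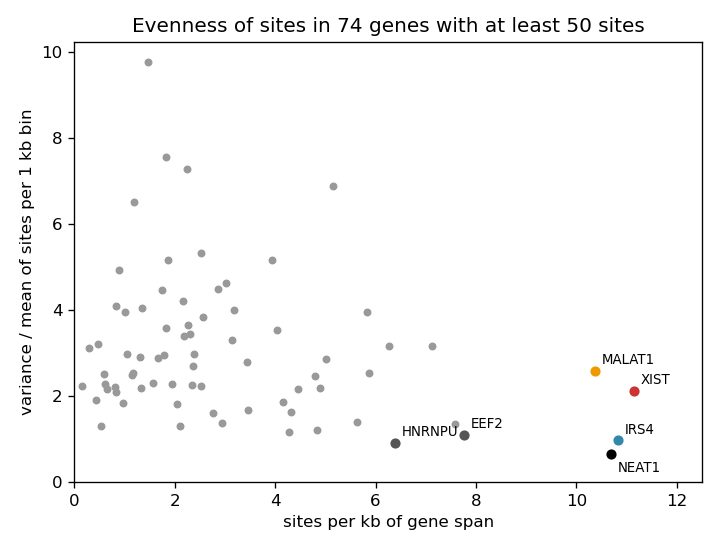
Variance over mean of the number of sites per 1 kb bin against sites per kb of gene span, 1 point for each of the 74 genes with at least 50 sites. NEAT1 (black) has the lowest ratio, 0.652, at 10.7 sites per kb; XIST (red), IRS4 (blue) and MALAT1 (orange) have similar densities with ratios of 2.12, 0.969 and 2.58. Bins of spliced genes include introns.

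A site lay in every 1 kb bin of 11 of the 74 genes, NEAT1, IRS4, HNRNPU and EEF2 among them, while the median of the 73 other genes was 60.0% of bins. The longest distance between neighbouring sites was 449 nt in NEAT1, 340 nt in MALAT1, 428 nt in IRS4 and 483 nt in XIST, against a median of 4206 nt in the other 73 genes. Spans of spliced genes hold introns, and many of these genes are longer than NEAT1. The 60.0% and the 4206 nt are therefore not for like stretches of RNA. NEAT1 also had fewer of its sites in clusters than its neighbours in density, with 21.4% against 41.5% in XIST (exact interval 36.3% to 46.8%), 39.6% in MALAT1 (29.5% to 50.4%) and 27.2% in IRS4 (20.9% to 34.3%). The interval of NEAT1, 16.4% to 27.1%, overlaps that of IRS4 and lies below those of XIST and MALAT1. XIST had 5 chains of 5 or more sites, with up to 8, and IRS4 had 1; NEAT1 and MALAT1 had 0. The share of sites with a neighbour within 50 nt was 64.2% in NEAT1 (exact interval 57.8% to 70.2%), 68.3% in XIST, 67.2% in IRS4 and 79.1% in MALAT1 (69.3% to 86.9%), and its median over the other 73 genes, most of them much less dense, was 48.3%. None of these differences can be tested over replicates.

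Over 10 equal parts of the gene from 5' to 3', NEAT1 held between 18 and 35 sites, or 7.41% to 14.4% of its sites. The lowest was part 1 and the highest was part 5. The genes with at least 50 sites whose profile over 10 parts was most like that of NEAT1 were HNRNPU, MALAT1 and IRS4, by the total variation distance, which is 0 for equal profiles and 1 for profiles without overlap. Their distances were 0.0983, 0.148 and 0.154, against a median of 0.316 over the 73 other genes. The last part held 8.64% of the sites of NEAT1, 9.89% of those of HNRNPU, 4.40% in MALAT1 and 12.2% in IRS4.

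**Figure D4:**
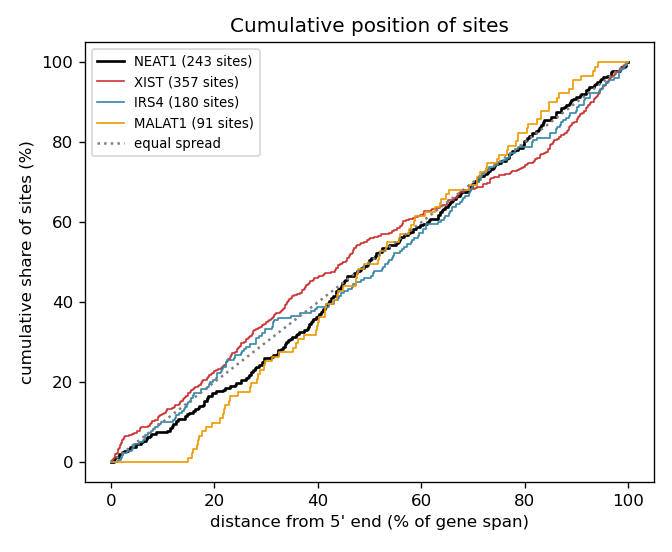
Cumulative share of sites (%) against distance from the 5' end (% of gene span) for NEAT1 (243 sites), XIST (357), IRS4 (180) and MALAT1 (91); the dotted line is an equal spread. The curve of NEAT1 lies just below the line over the 5' part, where part 1 of 10 held 7.41% of sites, and then follows it; MALAT1 starts late, with its first site centre at nt 1306 of its span.

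A list of 14 other well-known lncRNA genes was chosen with earlier results of these data known, so its shares are descriptions. Of the 14, 7 had a site counted for them, against 0.862% of all 18330 lncRNA genes in the table. That background includes many genes that may not be expressed in this line, and expression was not measured. After MALAT1 came GAS5, a snoRNA host gene, with 31 sites and 6.03 per kb, and SNHG1, another host, with 27 sites and 6.91 per kb. Both hold snoRNA genes whose sites were not counted for the host: all sites within their spans number 58 (11.3 per kb) in GAS5 and 41 (10.5 per kb) in SNHG1. NORAD, a cytoplasmic lncRNA that binds Pumilio proteins, had 22 sites and 4.12 per kb. TUG1 had 16 sites and 1.58 per kb. The gene table classes it as protein coding, so it is among the 7 but not among the 18330. PVT1 had 2 sites and OIP5-AS1 had 1. The 7 genes with 0 sites counted for them were CYTOR, FIRRE, HOTAIR, KCNQ1OT1, LINC-PINT, MEG3 and MIAT, with 5 sites within the span of KCNQ1OT1 that were not counted for it. At least 3 sites were found in 5 of the 14 genes, against 0.235% of all lncRNA genes.

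The mRNA genes of the proteins that meet NEAT1 in paraspeckles were mostly among those with USP39 sites too. Of 35 listed paraspeckle protein genes, 27 (77.1%) had a site, against 21.4% of all 20052 protein-coding genes, and the median over the 35 was 15 sites, against 0 over all protein-coding genes. The background includes genes that may be silent in HEK293T cells, and the list includes many genes of RNA-binding proteins. The list was also chosen with earlier results of these data known, so its shares are descriptions. SFPQ and NONO, which encode the core DBHS proteins that bind and stabilise the long isoform, had 81 and 53 sites, while PSPC1, the other member of that family, had 4. EWSR1 and TAF15, which also encode RNA-binding proteins, had 39 and 30. Among genes whose proteins are needed for paraspeckles to form, DAZAP1 had 66 sites, HNRNPK 54, RBM14 39, HNRNPH3 21 and SMARCA4, a chromatin remodelling ATPase, 8.

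HNRNPH1, a paralog of HNRNPH3, led the list with 106 sites. HNRNPA1 had 49 sites and RBMX, an X-linked hnRNP gene, had 37, before UBAP2L with 35. CPSF6 and NUDT21 encode subunits of the CFIm complex, which favours polyadenylation of the short isoform; they had 19 and 2 sites. The 8 genes without a counted site were AHDC1, CELF6, FIGN, RBM12, RBM7, RUNX3, SS18L1 and ZC3H6, although 12 sites within the span of RBM12 were counted for no gene or another gene. With at least 3 sites required, 23 of the 35 remained, against 11.8% of all protein-coding genes, and with at least 5 required 22, against 8.3%. Per kb of span, the densest of the 10 leading genes was HNRNPA1 with 7.70 sites, below the 10.7 of NEAT1, though these spans hold introns.

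**Figure D5:**
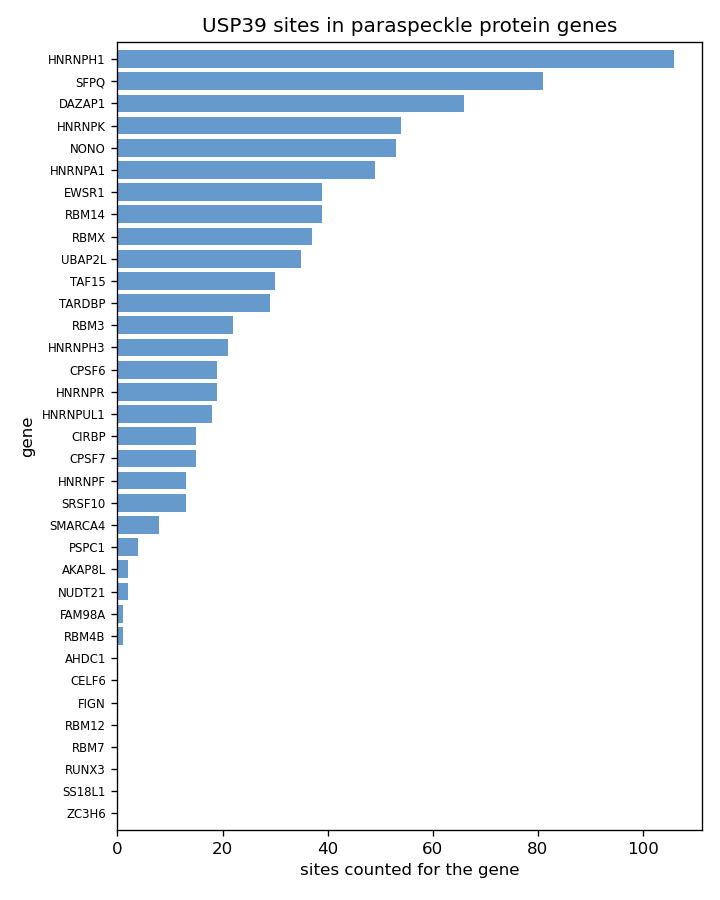
Number of USP39 sites counted for each of the 35 listed paraspeckle protein genes, 1 bar per gene, ordered by number of sites. The numbers run from 106 in HNRNPH1 to 0 in 8 genes.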

How the data were processed

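The data are 1 BED list of merged USP39 sites. The score the authors deposited is 0 for each site, so only positions and strands were used. Per the submitters' processing notes, the build was GRCh38.p12 and the named tools, listed with no roles, were STAR 2.7.3a, UMI-tools 1.1.2, SAMtools 1.10, FastQC 0.11.9 and bedtools 2.29.2. The site caller is not given in the sources used here, nor are its filters. They set which crosslinks count as separate sites and so affect spacing.

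Gene spans came from the RefSeq table of GRCh38.p14 (59788 genes with a position), which gives no strand, exons or transcript ends; patch releases leave chromosome coordinates as they are. Sites were assigned by their central base, with small RNA classes before protein-coding genes, these before lncRNA genes, and ties settled by the strand on which most of each gene's own sites lay; 425 sites stayed with a class and no gene. Coordinates count the first base as 1. Named genes are those of the lncRNA list, the 10 paraspeckle genes with the most sites and those without any, the neighbours of NEAT1 in density, and the 3 genes of most like profile; other paraspeckle genes were named after their values were seen. The members, lists and rules were chosen with earlier results of these data known. Exact binomial intervals (Clopper-Pearson) cover counting error only. No test across samples was possible. A further listed paraspeckle gene is not reported here. Sequence at the sites was not analysed here. Procedures were checked on simulated data. Analyses ran in Python 3.11.15 with scipy 1.17.1, pandas 2.3.3, matplotlib 3.10.9 and numpy 2.4.6.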

Additional observations from a re-analysis of the deposited data

How the results depend on the processing

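The list has no values per library, so no replicate could be left out, and the limits come from 1 merged list of unknown depth. No paired analysis was possible because no value belongs to a numbered library. With sites within 50 nt joined, NEAT1 had 155 sites and ranked 1 in sites per kb; with genes of at least 20 sites, or with all sites within each span counted (chosen after seeing the data), it ranked 4. The number of clusters was 3 with a distance of 20 nt, 34 with 100 nt and 19 with 200 nt, and 0 with at least 5 sites required, so cluster numbers depend on these settings. The share of sites with a neighbour was 39.5% within 20 nt, 88.9% within 100 nt and 99.2% within 200 nt. In 2 kb bins, chosen after seeing the data, NEAT1 ranked 5 in evenness. The density ratio stayed below 1 in each of its 5 alternatives, from 0.789 to 0.943, all within its exact interval. These alternatives reuse the same list, so they are not independent checks, and the interval includes 1.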
